A study of Mus musculus with 12 samples.

Results

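The genes described here are 38 genes of fatty acid oxidation and of the peroxisome in mouse bone marrow-derived mesenchymal stem cells, the adherent stromal cells of the marrow. They were taken by symbol from a table of 23358 gene rows, and they fall into 6 classes by role: 4 regulators of fuel use, 4 genes of the carnitine shuttle, 13 enzymes of mitochondrial beta-oxidation, 3 electron transfer genes, 5 peroxisome enzymes and transporters, and 9 peroxins, the proteins that build the peroxisome. Cells in serum-containing medium were plated, grown for 1 day and exposed to the compounds for 24 h, and RNA was sequenced from 12 libraries, 3 for each group. One group was left without treatment (Ctrl), one received cytochalasin D (CytoD), which caps actin filaments, one received CK666 (CK), which inhibits the Arp2/3 complex that branches them, and one received both (CytoD+CK). No dose, mouse strain or age is given in the sources used here. Whether replicates came from different animals or cultures is also not stated there, and p values therefore rest on a spread between libraries that may be technical only.

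Mitochondria break down fatty acids by beta-oxidation. Acyl chains are coupled to carnitine, carried across the inner membrane, and shortened in a cycle of dehydrogenation, hydration, a second dehydrogenation and thiolytic cleavage, while electrons pass through the electron transfer flavoprotein to ubiquinone. Peroxisomes shorten very long and branched chains by a parallel set of enzymes, and catalase removes the hydrogen peroxide formed there. Many genes of both pathways are known targets of the PPAR nuclear receptors, and stromal cells of the marrow can become fat cells, which store and burn fatty acids.

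Levels are CPM, that is, counts brought to one library size after TMM scaling, and are given per kilobase of the table's gene length where genes are set against each other. Gene counts per library summed to between 48930210 and 69269716, and the limit that a count of 0 sets was at most 0.0613 CPM (3 counts, for counting error only). All counts in the table were even, so each fragment may have been counted by both its reads, and the limit is then higher. All 38 genes passed the filter on low counts. CK replicate 3 stood apart from the other CK libraries, from which it differed by 0.289 and 0.276 (median absolute log2 difference over genes) against 0.126 between the other two. It lay above both of them for 26 of the 38 genes and below both for 5. The log2 ratio of CK replicate 3 to the mean of CK replicates 1 and 2 differed by gene length. Its median was 0.26 in the genes shorter than the median of 2219.5 bases and 0.05 in the longer ones. CK values are therefore also given without CK replicate 3 where that matters. Of 10 adipocyte markers, 10 rose in each treated group against Ctrl, by a median log2 of 3.01 with CytoD, 5.46 with CK and 5.81 with both. In CK against CytoD 9 of the 10 were higher and 1 (Lpl) lower, with a median of 1.92. Adipoq, an adipocyte hormone, had a mean of 16.2 CPM in Ctrl, 153 in CytoD, 603 in CK and 836 in CytoD+CK (SD 1.3, 6.4, 160 and 158, n = 3 each). All of these markers but Lpl were thus higher with CK than with CytoD, and more of the 38 genes were called higher with CK. The markers' summed level, most of it from Lpl, was 3373 to 4019 CPM in Ctrl, 8415 to 8726 in CytoD, 7531 to 9715 in CK and 9421 to 11797 in CytoD+CK. Ucp1, the defining gene of brown fat, was at 0 in all libraries, as were Ptprc and Emr1 of macrophages and the haemoglobin genes. Other markers of these lists were low but present. The 6 brown and beige markers summed to between 15.1 and 25.5 CPM per library, and the 7 macrophage markers to between 6.89 and 13. The 4 macrophage markers tested had log2 changes against Ctrl from -0.37 to 1.77 with CytoD, -0.71 to 0.43 with CK and -1.3 to 0.76 with both. The summed level of 11 marrow stromal markers was 23689 to 25971 CPM in Ctrl, 29064 to 30950 in CytoD, 13441 to 14615 in CK and 12221 to 12932 in CytoD+CK, with Thy1 near 0. Of the 10 tested, 4 were higher and 3 lower with CytoD, 1 and 5 with CK, and 1 and 5 with both. Over all genes tested the shares were 19.1% and 18.9%, 22.5% and 18.7%, and 24.4% and 21.6%. Single stromal markers thus went both ways, by log2 -1.56 to 1.24 with CytoD, -2.39 to 1.52 with CK and -3.03 to 1.92 with both. The part that these shifts have in the results was not tested, and in bulk RNA a change in the share of cells and a change in RNA per cell cannot be told apart.

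With CytoD 8 of 14 peroxisome genes were called higher, and of 20 genes of mitochondrial transport and oxidation 5 were higher and 1 lower. The difference between these shares was not tested. Of the 38 genes, 14 were higher and 2 lower than in Ctrl, where 19.1% of all 13534 genes tested were called higher and 18.9% lower. The 5 of 20 mitochondrial genes called higher are near the share over all genes. Peroxins rose in 6 of 9 cases, led by Pex16 (log2 0.89, SE 0.17) and Pex11a (log2 0.77, SE 0.10). Among the beta-oxidation enzymes 5 of 13 rose, with Echs1 first (log2 0.55, SE 0.11), and none of the 3 electron transfer genes passed the test. Cpt1a, the entry step of the shuttle, and Ucp2 fell. The median log2 change was 0.16 over the 38 genes and 0.02 over all genes tested. Several of these calls were near the threshold: the count of higher genes was 8 without Ctrl replicate 3 and 9 without Ctrl replicate 2, and the calls of Hadhb, Ech1 and Pex19 were lost when any of the 6 libraries was left out.

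Treatment with CK raised nearly the whole group. Against Ctrl 32 of the 38 genes were higher and 0 lower in edgeR's test, where 22.5% of all genes tested were higher and 18.7% lower. The count of lower genes was also 0 at an unadjusted p under 0.05 and 0 with DESeq2. All 13 beta-oxidation enzymes, all 3 electron transfer genes, 3 of 4 shuttle genes, 4 of 5 peroxisome enzymes and transporters and 8 of 9 peroxins rose, or 19 of 20 mitochondrial and 12 of 14 peroxisome genes. The largest changes were those of Pex16 (log2 2.23, SE 0.17), Ucp2 (1.42, SE 0.39), Acaa2 (1.28, SE 0.09), Hadh (1.26, SE 0.09) and Cat (1.07, SE 0.08). The median log2 change was 0.64 over the 38 genes and 0.03 over all genes tested. Without CK replicate 3 the median was 0.47, and 30 genes were called higher.

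**Figure D1:**
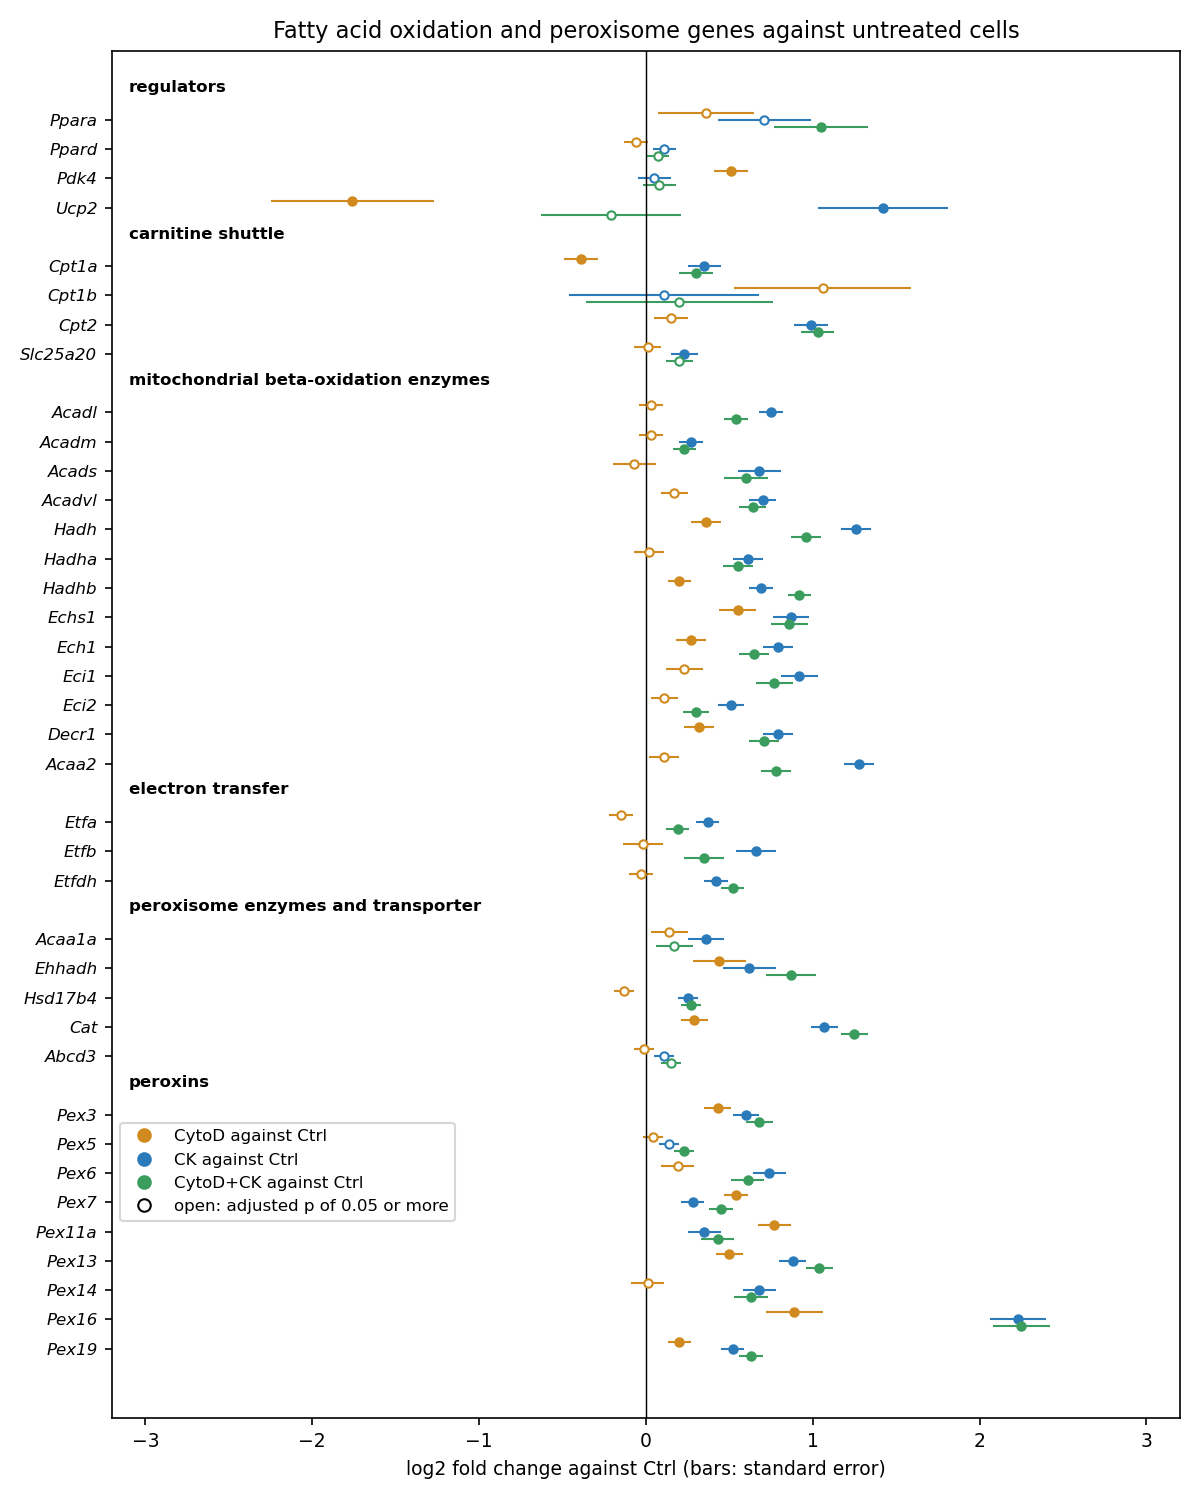
The log2 fold change against Ctrl (x axis) of each of the 38 genes, in rows by role, for CytoD, CK and CytoD+CK; bars are standard errors and open circles did not pass the test. CK and CytoD+CK values lie to the right of 0 for nearly all genes, up to 2.25 for Pex16, while Ucp2 and Cpt1a lie to the left with CytoD.

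With both compounds 31 genes were higher than in Ctrl and 0 lower in edgeR's test (0 also at an unadjusted p under 0.05 and with DESeq2), where 24.4% of all genes tested were higher and 21.6% lower, and the median log2 change was 0.57 over the 38 genes and 0.04 over all genes. All 9 peroxins and all 13 beta-oxidation enzymes were among those called. When 1 library was left out, 25 to 30 genes were called higher. With the gene length correction Pex11a was not called (log2 0.35, adjusted p = 0.0511). Set against CytoD alone, the combination had 28 genes higher and 2 lower (Pdk4 and Pex11a), where 15.8% of all genes tested were higher and 14.3% lower. When 1 library was left out, 21 to 28 were higher and 1 to 2 lower. Pex11a was not called without CytoD replicate 1 or 3 or CytoD+CK replicate 2 or 3 (adjusted p from 0.0613 to 0.0694). Set against CK alone, the combination had 1 gene higher (Hadhb) and 3 lower (Ucp2, Hadh and Acaa2), where 4.43% of all genes tested were higher and 7.17% lower. The higher count there was 0 to 2 and the lower 1 to 5 when 1 library was left out. CK against CytoD, a comparison added after the others had been seen, had 27 genes higher and 3 lower (Pdk4, Pex7 and Pex11a), where 22.9% of all genes tested were higher and 16.8% lower. These comparisons share libraries and are not independent.

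**Figure D2:**
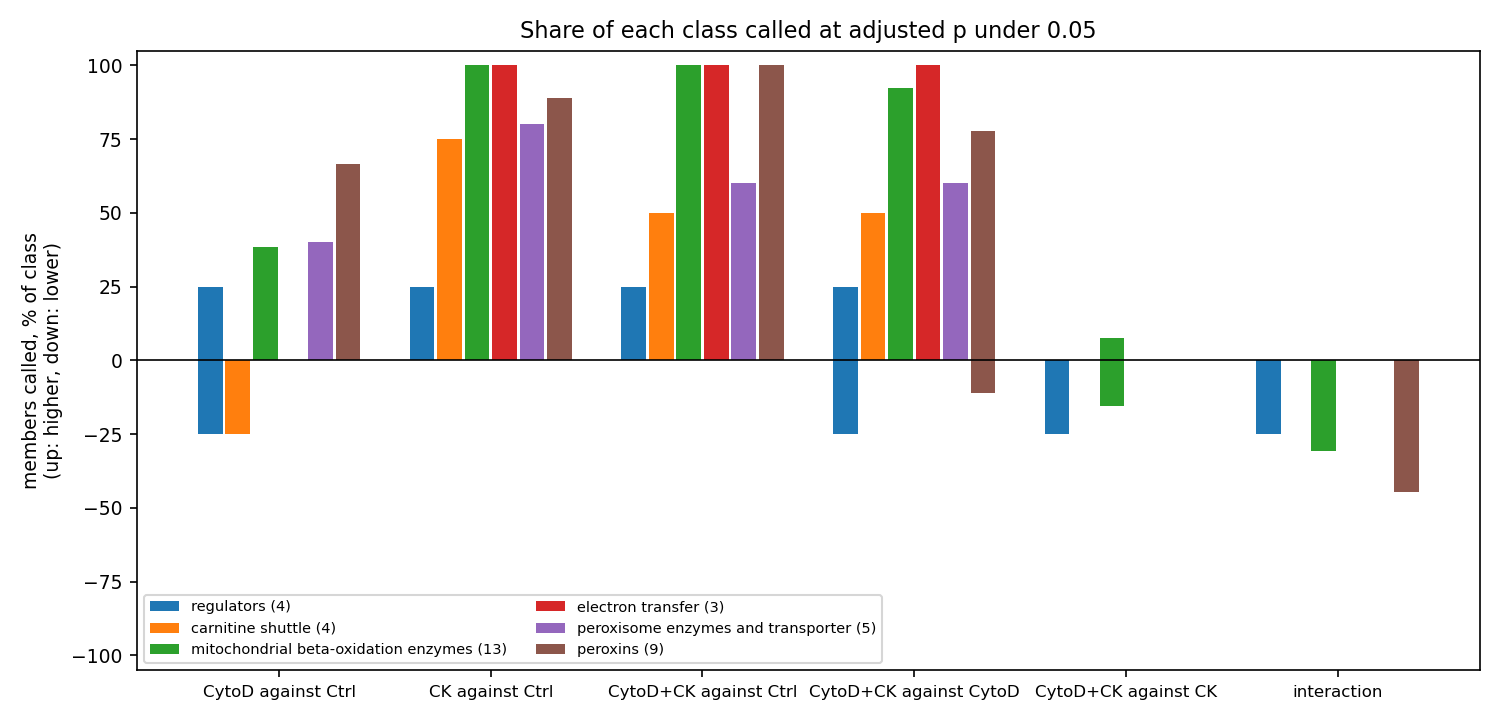
The share of each role class (percent of its members, y axis, upward for higher and downward for lower) called at an adjusted p under 0.05 in 6 comparisons (x axis). The bars for beta-oxidation enzymes and electron transfer reach 100 in CK against Ctrl and in CytoD+CK against Ctrl, and those for peroxins are the tallest in CytoD against Ctrl.

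Per kilobase, the summed level of the 38 genes was 1310 to 1424 CPM in Ctrl, 1480 to 1542 in CytoD, 2040 to 2407 in CK and 1936 to 2106 in CytoD+CK. The CK and CytoD+CK libraries lay above all others and CytoD libraries lay above Ctrl, with ratios of mean to that of Ctrl of 1.1 for CytoD, 1.59 for CK and 1.49 for CytoD+CK. CK replicate 3 held the highest sum, 2407, while CK replicates 1 and 2, at 2040 and 2052, lay within the range of CytoD+CK. The ratios were 1.14, 1.73 and 1.58 for the beta-oxidation enzymes, 0.956, 1.46 and 1.24 for electron transfer, 1.06, 1.48 and 1.57 for the peroxisome enzymes and transporters, and 1.24, 1.56 and 1.63 for the peroxins, in the same order. CK replicate 3 raised these CK ratios. In CK replicates 1, 2 and 3 the sums were 1110, 1087 and 1327 CPM for the beta-oxidation enzymes and 329.2, 333 and 432.5 for electron transfer. In Ctrl the highest mean level per kilobase among the 38 was that of Etfb at 144 CPM, and the lowest that of Cpt1b at 0.0698 CPM.

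The regulators did not move together. Ppara encodes the nuclear receptor that switches on fatty acid oxidation genes in liver, and it was low, at 1.34, 1.86 and 1.05 CPM in Ctrl, 1.6, 1.64 and 2.2 in CytoD, 1.97, 2.17 and 2.79 in CK and 1.81, 3.44 and 3.53 in CytoD+CK. It passed the test with both compounds (log2 1.05, SE 0.28, adjusted p = 0.0076) but not with CK alone (log2 0.71, SE 0.28, adjusted p = 0.0608), where the call was made with DESeq2 (adjusted p = 0.0453), with the gene length correction (0.0223) and without Ctrl replicate 2 (0.0355). Ppard, a related receptor, was between 55.7 and 69.5 CPM in all libraries: 59.8, 62.5 and 63.5 in Ctrl, 60.6, 61.5 and 55.7 in CytoD, 63, 69.4 and 68.4 in CK, and 62.3, 69.5 and 63.9 in CytoD+CK. It was not called in any comparison of the fit of all libraries, with a log2 difference from Ctrl of -0.06 in CytoD, 0.11 in CK and 0.07 in CytoD+CK (SE 0.07 each). Its difference between CK and CytoD (log2 0.18, adjusted p = 0.0603) was called with the gene length correction (0.0269) and without CK replicate 1 (0.0342).

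Pdk4, the kinase that shuts off pyruvate dehydrogenase and so favours fatty acids as fuel, rose with CytoD and did not pass the test with CK or with both compounds. It stood at 128, 117 and 113 CPM in Ctrl, 175, 171 and 165 in CytoD, 133, 136 and 102 in CK and 136, 121 and 121 in CytoD+CK. All 3 CytoD libraries lay above the other 9, whose groups overlapped each other. The change with CytoD was log2 0.51 (SE 0.10, adjusted p = 0.00154), and that with CK 0.05 (SE 0.10, adjusted p = 0.723).

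Ucp2, a carrier of the inner mitochondrial membrane, moved in opposite directions with the compounds, at low levels that came near the floor in CytoD. It had 24, 18 and 22 counts in Ctrl, 12, 2 and 6 in CytoD, 44, 56 and 94 in CK and 18, 32 and 18 in CytoD+CK, or 0.489, 0.381 and 0.413 CPM, 0.247, 0.0336 and 0.108, 0.867, 1.08 and 1.47, and 0.333, 0.451 and 0.318. The CK libraries lay above and the CytoD libraries below the Ctrl libraries without overlap, and CytoD+CK overlapped Ctrl. The log2 change was -1.76 with CytoD (SE 0.49, adjusted p = 0.0129) and 1.42 with CK (SE 0.39, adjusted p = 0.0104). Each missed the threshold by little when 1 library was left out: without CytoD replicate 3 the first was -1.67 (adjusted p = 0.0503), and without CK replicate 3 the second was 1.14 (adjusted p = 0.0509).

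Of the carnitine shuttle genes, Cpt2 had the largest log2 change with CK. It encodes the inner membrane transferase that returns acyl groups to coenzyme A. Cpt2 stood at 29.4, 27.4 and 27.2 CPM in Ctrl, 30, 32.4 and 31.1 in CytoD, 47.3, 57.6 and 62 in CK and 50.9, 63 and 57.9 in CytoD+CK. The groups with CK lay above those without it, 1.99-fold above Ctrl for CK (log2 0.99, SE 0.10, adjusted p = 8.22e-06) and 2.05-fold for the combination. Cpt1a, the outer membrane transferase that sets the rate of entry, had 173, 153 and 147 CPM in Ctrl, 131, 120 and 110 in CytoD, 214, 214 and 175 in CK and 207, 196 and 180 in CytoD+CK. CytoD libraries were the lowest and did not overlap Ctrl (log2 -0.39, SE 0.10, adjusted p = 0.0079), and those with CK or both lay above Ctrl (log2 0.35 and 0.30, SE 0.10 each). The rise with CK was not called without Ctrl replicate 3 (log2 0.27, adjusted p = 0.0777), nor was that with both compounds (log2 0.23, adjusted p = 0.126), which was also lost without Ctrl replicate 2 and CytoD+CK replicates 1 and 2 (adjusted p = 0.0783, 0.0821 and 0.0657).

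Cpt1b, the muscle form of the outer transferase, was near the floor, with 6, 14 and 10 counts in Ctrl, 30, 18 and 20 in CytoD, 10, 14 and 12 in CK and 4, 14 and 24 in CytoD+CK, or 0.122, 0.296 and 0.188 CPM, 0.617, 0.302 and 0.361, 0.197, 0.271 and 0.188, and 0.0739, 0.197 and 0.424. It passed no test, and its row overlaps another gene row, BC090627. Slc25a20, the carrier that exchanges acylcarnitine for carnitine, had 41, 36.1 and 37.8 CPM in Ctrl, 40.1, 37 and 38.5 in CytoD, 42.8, 42.5 and 49.8 in CK and 40.9, 47.3 and 44.3 in CytoD+CK. Its call with CK (log2 0.23, SE 0.08, adjusted p = 0.0378) was lost without Ctrl replicates 1, 2 or 3 (adjusted p = 0.0648, 0.143 and 0.160), without CK replicate 3 (log2 0.11, adjusted p = 0.206), which held its highest value. It was also lost under 7 other settings: DESeq2, RLE size factors, no low-count filter, halved counts, without the ribosomal RNA row Rn45s, the gene length correction and 2 groups only (adjusted p from 0.0689 to 0.102).

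The promoter of Cpt1a, the shuttle gene that went down with CytoD and up with CK, is shown first. Its 250 bases lie before a RefSeq start site (GRCm38.p6, chr19:3323051-3323300, plus strand), but RefSeq's span of Cpt1a begins further upstream, at base 3322326. The 250 bases before the starts of Cat (chr2:103485154-103485403, minus strand) and Pex16 (chr2:92374426-92374675, plus strand), which rose in every treated group, are shown beside it. Hadha and Hadhb are a pair read in opposite directions from 1 intergenic stretch. Of that stretch, the 228 bases that lie within 250 bases before both starts are shown (chr5:30155003-30155230, plus strand). Capitals mark the PPAR hexamer AGGTCA, the GC box GGGCGG and the spaced direct repeat described further on, on either strand.
Cpt1a: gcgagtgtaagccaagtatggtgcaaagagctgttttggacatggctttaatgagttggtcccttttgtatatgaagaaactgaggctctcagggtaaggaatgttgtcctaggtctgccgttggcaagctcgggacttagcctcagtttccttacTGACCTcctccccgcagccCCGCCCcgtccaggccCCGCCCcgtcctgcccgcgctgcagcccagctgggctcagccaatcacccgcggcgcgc
Cat: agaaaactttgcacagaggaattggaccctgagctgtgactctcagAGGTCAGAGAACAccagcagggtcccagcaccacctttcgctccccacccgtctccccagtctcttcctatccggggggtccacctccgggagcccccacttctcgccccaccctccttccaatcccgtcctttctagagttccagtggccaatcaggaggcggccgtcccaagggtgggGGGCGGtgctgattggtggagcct
Pex16: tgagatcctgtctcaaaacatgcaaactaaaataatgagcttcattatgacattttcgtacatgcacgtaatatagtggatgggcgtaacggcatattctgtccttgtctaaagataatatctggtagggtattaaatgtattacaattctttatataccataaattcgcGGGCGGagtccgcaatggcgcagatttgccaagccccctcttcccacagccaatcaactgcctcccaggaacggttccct
Hadha and Hadhb: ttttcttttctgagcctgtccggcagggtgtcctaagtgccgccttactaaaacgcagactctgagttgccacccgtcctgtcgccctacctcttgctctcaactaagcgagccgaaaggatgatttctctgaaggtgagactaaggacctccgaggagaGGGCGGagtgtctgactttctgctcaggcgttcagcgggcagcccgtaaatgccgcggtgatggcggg

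Of the enzymes of mitochondrial beta-oxidation 13 of 13 were higher with CK, with log2 changes from 0.27 (Acadm) to 1.28 (Acaa2), a median of 0.75. Acaa2, the ketoacyl-CoA thiolase that releases acetyl-CoA at the end of each cycle, had 92.3, 79.4 and 89.2 CPM in Ctrl, 98.3, 90.8 and 93.1 in CytoD, 196, 193 and 242 in CK and 147, 154 and 146 in CytoD+CK. The 3 CK libraries lay above all others, and the CytoD+CK libraries lay between them and the rest. It was 2.42-fold higher with CK (log2 1.28, SE 0.09, adjusted p = 4.98e-07), not called with CytoD (log2 0.11, SE 0.09), and lower with both compounds than with CK (log2 -0.50, SE 0.09, adjusted p = 0.00375, and 0.0514 in a fit of those 2 groups only).

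Hadh, the hydroxyacyl-CoA dehydrogenase of shorter chains, showed the same order, with 96.2, 80.4 and 85 CPM in Ctrl, 119, 107 and 110 in CytoD, 197, 197 and 230 in CK and 161, 178 and 169 in CytoD+CK. None of the 4 groups overlapped another. Its changes against Ctrl were log2 0.36 with CytoD (SE 0.09, adjusted p = 0.00602), 1.26 with CK (SE 0.09) and 0.96 with both (SE 0.09). The drop from CK to the combination (log2 -0.30, adjusted p = 0.0434) was lost without CK replicate 3 (log2 -0.21, adjusted p = 0.0795) and without CytoD+CK replicates 1, 2 or 3 (adjusted p = 0.104, 0.0764 and 0.134). Eci1, an isomerase that moves double bonds of unsaturated chains, had 32.5, 30.7 and 31 CPM in Ctrl, 38.6, 37.3 and 34.7 in CytoD, 53.9, 51 and 73.5 in CK and 50, 55.3 and 54.9 in CytoD+CK. CK replicate 3 was its highest library by far, the change with CK was log2 0.92 (SE 0.11), and CytoD libraries lay above Ctrl without passing the test (log2 0.23, adjusted p = 0.132). They passed it with the gene length correction (0.00724) and in a fit of those 2 groups only (0.00317).

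The 4 acyl-CoA dehydrogenases, which open the cycle for chains of different length, rose with CK by log2 0.70 (Acadvl, very long chains), 0.75 (Acadl, long), 0.27 (Acadm, medium) and 0.68 (Acads, short), and without Ctrl replicate 3 Acadm was not called (adjusted p = 0.0556). None was called with CytoD, where their log2 values were 0.17, 0.03, 0.03 and -0.07. Hadha and Hadhb encode the alpha and beta subunits of the trifunctional protein, lie 341 bases apart in the table and share the stretch printed above. Hadha rose by log2 0.61 with CK and 0.55 with both, and Hadhb by 0.69 and 0.92. Hadhb was also higher with both compounds than with CK (log2 0.22, adjusted p = 0.0474), where Hadha was not called (log2 -0.06), and that call was lost without any of CK replicates 1 and 2 and CytoD+CK replicates 2 and 3. Echs1, the enoyl-CoA hydratase, rose with CytoD and CK by log2 0.55 and 0.87. The auxiliary enzymes for unsaturated chains Ech1, Decr1 and Eci2 rose with CK by log2 0.79, 0.79 and 0.51, and Ech1 and Decr1 also with CytoD, by 0.27 and 0.32, the latter not without Ctrl replicates 2 or 3 (adjusted p = 0.0523 and 0.073).

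The electron transfer genes, which hand electrons from the dehydrogenases to the respiratory chain, rose with CK and with both compounds, and none passed the test with CytoD. Etfb, a flavoprotein subunit, had 122, 111 and 120 CPM in Ctrl, 124, 111 and 112 in CytoD, 162, 164 and 231 in CK and 151, 157 and 141 in CytoD+CK. Its other subunit Etfa had 128, 122 and 124 CPM in Ctrl, 111, 113 and 114 in CytoD, 153, 154 and 178 in CK and 139, 144 and 146 in CytoD+CK. Etfdh, the oxidoreductase that passes the electrons to ubiquinone, had 48.6, 43.4 and 44.6 CPM in Ctrl, 43.2, 43.3 and 47.4 in CytoD, 59.1, 61.5 and 62.4 in CK and 59.7, 68 and 67.8 in CytoD+CK. For all 3 genes the CK libraries lay above the Ctrl libraries, with log2 changes of 0.66 (Etfb, SE 0.12), 0.37 (Etfa, SE 0.07) and 0.42 (Etfdh, SE 0.07). With both compounds the changes were 0.35 (Etfb, adjusted p = 0.0296), 0.19 (Etfa, adjusted p = 0.0365) and 0.52 (Etfdh, adjusted p = 7.93e-05). The Etfa call was lost with DESeq2 (adjusted p = 0.0523), RLE size factors (0.0775), no low-count filter (0.124), halved counts (0.0735), without Rn45s (0.0849) and without Ctrl replicates 1, 2 or 3 or CytoD+CK replicates 2 or 3 (0.1 to 0.173). The Etfb call was lost without Rn45s (0.0515) and without Ctrl replicates 1, 2 or 3 or CytoD+CK replicates 1 or 2 (0.0628 to 0.103). Etfa was below Ctrl in all CytoD libraries, a difference (log2 -0.15, adjusted p = 0.108) that was called in a fit of those 2 groups only (adjusted p = 0.0124) and with the gene length correction (adjusted p = 0.0431).

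Catalase, which breaks down hydrogen peroxide, had the largest log2 change with CK of the 5 peroxisome enzymes and transporters among the 38 genes, and Ehhadh that with CytoD. Cat had 132, 125 and 125 CPM in Ctrl, 160, 152 and 156 in CytoD, 258, 266 and 277 in CK and 265, 321 and 322 in CytoD+CK. Ctrl was lowest, CytoD next and both groups with CK highest, with changes against Ctrl of log2 0.29 (SE 0.08, adjusted p = 0.00978), 1.07 (SE 0.08, adjusted p = 5.37e-07) and 1.25 (SE 0.08, adjusted p = 7.05e-08). Without Ctrl replicate 3 the CytoD call was lost (adjusted p = 0.0505).

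Ehhadh, the L-bifunctional enzyme of peroxisomal beta-oxidation, was scarce, at 3.3, 3.13 and 2.89 CPM in Ctrl, 3.54, 4.66 and 4.4 in CytoD, 4.25, 5.18 and 4.91 in CK and 4.77, 5.5 and 6.71 in CytoD+CK. All treated libraries lay above Ctrl, with log2 changes of 0.44 (SE 0.16), 0.62 (SE 0.16) and 0.87 (SE 0.15), and the CytoD call was lost when any library but CytoD replicate 1 was left out (adjusted p up to 0.155). Acaa1a, the peroxisomal thiolase, had 39.2, 35.5 and 38.4 CPM in Ctrl, 44.4, 39.3 and 41.1 in CytoD, 44, 42.5 and 59.1 in CK and 43, 42.7 and 41.9 in CytoD+CK. Its rise with CK (log2 0.36, SE 0.11, adjusted p = 0.0155) had its highest library in CK replicate 3 and was not called without Ctrl replicate 1, 2 or 3 (adjusted p = 0.0526, 0.0661 and 0.0589). Reads of its near copy Acaa1b cannot be told apart with certainty, and that gene stood at 0.168 CPM in Ctrl and 0.728 in CK. Hsd17b4, the D-bifunctional enzyme, rose with CK (log2 0.25, SE 0.06) and with both (log2 0.27, SE 0.06), and Abcd3, a transporter of the peroxisome membrane, was not called in any comparison of the fit of all libraries, with log2 values of 0.11 with CK (SE 0.06, adjusted p = 0.196) and 0.15 with both (SE 0.06, adjusted p = 0.0595). With the gene length correction Abcd3 was called higher with CK (adjusted p = 0.0318) and with both (0.00799) than in Ctrl, and with CK (0.0327) and with both (0.0119) than with CytoD. Fits of 2 groups only called it with both against Ctrl (0.0345) and CytoD (0.0292), and the fit without CK replicate 3 called it with CK against CytoD (0.0432).

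**Figure D3:**
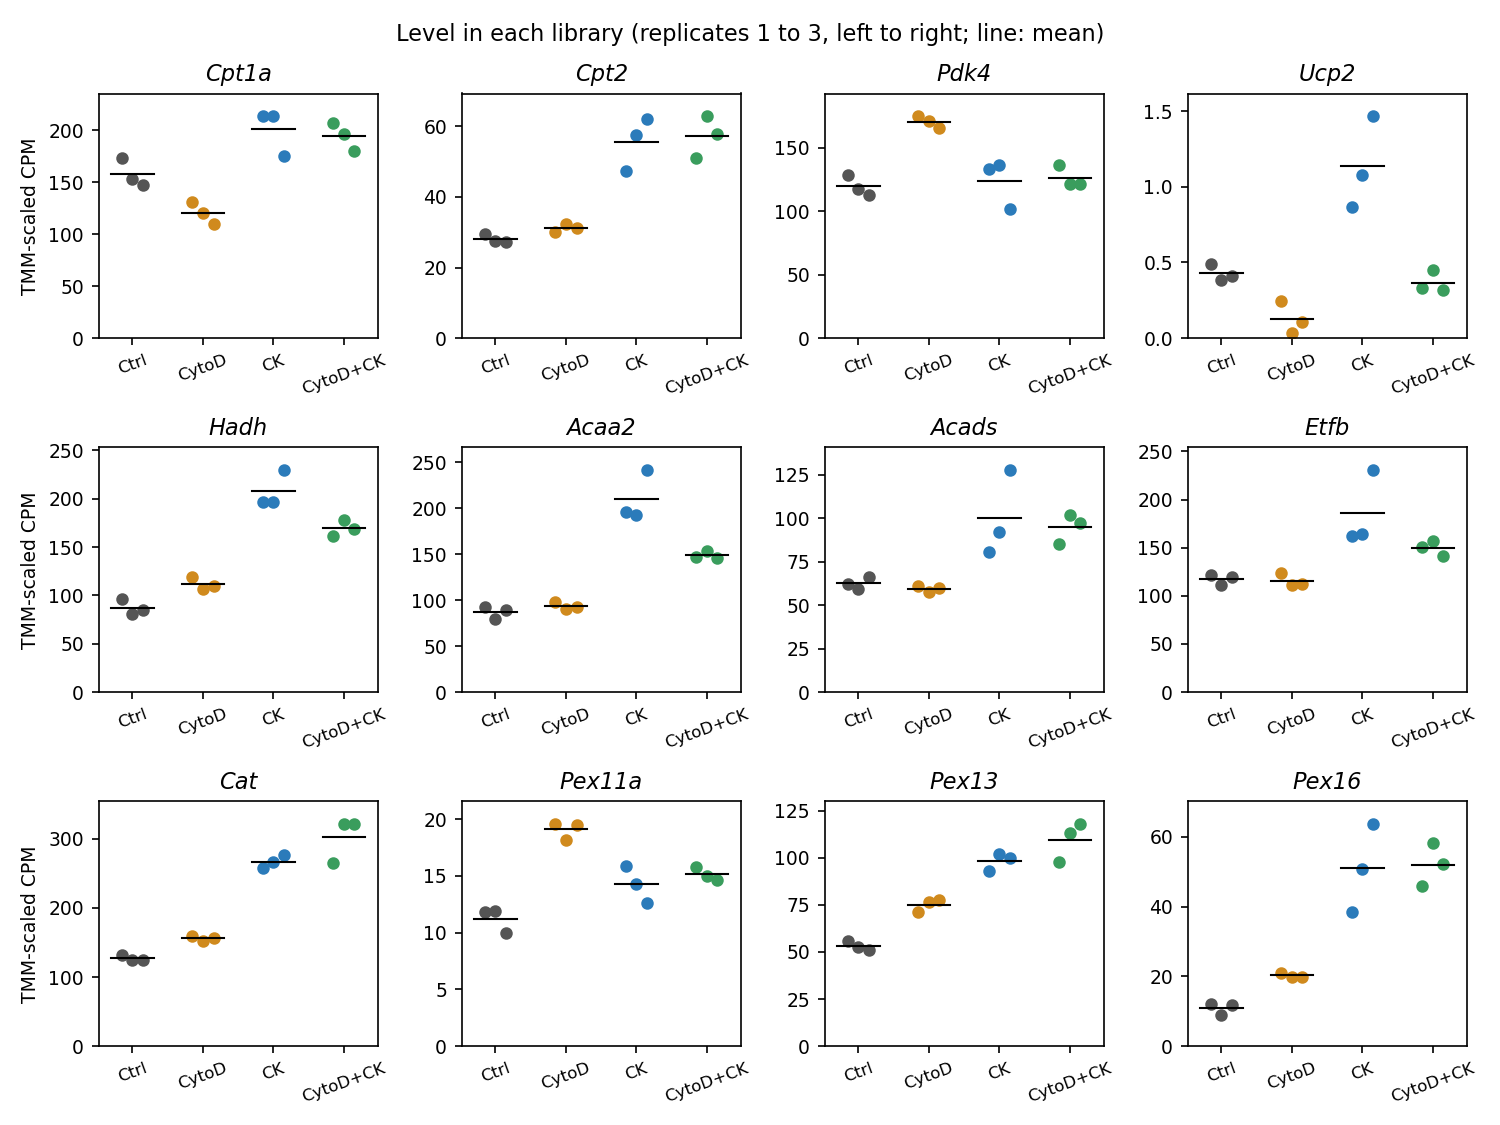
TMM-scaled CPM (y axis, from 0) in each library of 12 genes, with the 4 groups on the x axis, replicates 1 to 3 from left to right and a line at the group mean. Cat, Cpt2 and Pex16 are high in both groups with CK, Pdk4 and Pex11a are highest in CytoD, and Acads, Etfb and Pex16 show CK replicate 3 above the other CK libraries.

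Among the peroxins Pex16 had the largest change with CK of all 38 genes. It encodes a membrane protein that helps insert other proteins into the peroxisome membrane, and its level was 12.2, 8.84 and 11.7 CPM in Ctrl, 21.1, 19.9 and 19.8 in CytoD, 38.6, 50.9 and 63.8 in CK and 45.8, 58.2 and 52.3 in CytoD+CK. The groups stood apart except CK and CytoD+CK, which overlapped. The level was 1.85-fold that of Ctrl with CytoD (adjusted p = 0.00107), 4.68-fold with CK (adjusted p = 7.09e-07) and 4.77-fold with both (adjusted p = 3.11e-07). Its partners in membrane assembly, Pex3 and Pex19, rose by log2 0.43 and 0.20 with CytoD, 0.60 and 0.52 with CK and 0.68 and 0.63 with both.

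Pex11a, which elongates the peroxisome membrane before division, showed another order. Its level was 11.8, 11.9 and 9.96 CPM in Ctrl, 19.6, 18.2 and 19.5 in CytoD, 15.9, 14.3 and 12.6 in CK and 15.8, 15 and 14.6 in CytoD+CK. CytoD libraries were highest, Ctrl libraries lowest, and both groups with CK overlapped between them. The change was log2 0.77 with CytoD (SE 0.10, adjusted p = 6.62e-05), 0.35 with CK (SE 0.10, adjusted p = 0.0138) and -0.42 for CK against CytoD (SE 0.10, adjusted p = 0.00432). With the gene length correction the CK value was 0.15 (adjusted p = 0.418), and it was not called without Ctrl replicate 3 (0.24) or CK replicate 1 (0.26). Pex11a lies 4487 bases from Plin1, a lipid droplet gene whose level was 6.97 CPM in Ctrl, 141 in CytoD, 457 in CK and 645 in CytoD+CK (SD 0.791, 2.71, 126 and 110, n = 3), an order that Pex11a did not follow.

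Pex13, a component of the docking complex for imported enzymes, had 55.7, 52.7 and 51.2 CPM in Ctrl, 71.2, 76.4 and 77.7 in CytoD, 92.8, 102 and 100 in CK and 97.5, 113 and 118 in CytoD+CK. Every treated library lay above Ctrl, with log2 changes of 0.50, 0.88 and 1.04 (SE 0.08 each). Its row overlaps that of Pus10 by 262 bases, and Pus10 was not called with CytoD (log2 -0.06) and rose by log2 0.32 with CK (adjusted p = 0.0144). Pex3 overlaps Adat2 by 236 bases, and Adat2 was not called with CytoD (log2 -0.29, adjusted p = 0.0655) or CK (log2 0.12). Pex14, the other docking protein, rose with CK (log2 0.68) and not with CytoD (log2 0.01). Pex7 and Pex5 are the receptors that bring enzymes to the organelle: Pex7 rose more with CytoD (log2 0.54) than with CK (log2 0.28; CK against CytoD -0.26, adjusted p = 0.00938, and 0.0506 without CytoD replicate 1), while Pex5 was called with both compounds together (log2 0.23) and with neither alone (0.04 and 0.14). With CK it was called with the gene length correction (adjusted p = 0.0261). The Pex7 call with CK was lost without Ctrl replicate 3 (adjusted p = 0.0553), and the call of Pex5 with both without Ctrl replicates 1 or 3 or CytoD+CK replicate 2 (adjusted p = 0.0678, 0.0542 and 0.0541). Pex6, an ATPase that recycles the receptors, rose with CK (log2 0.74) and was not called with CytoD (log2 0.19).

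Whether CytoD acted the same with and without CK was asked with the interaction, which subtracts the CytoD effect in cells without CK from that in cells with CK. It was below 0 for 9 genes and above 0 for 0 in edgeR's test (1 at an unadjusted p under 0.05, Cpt1a, and 0 with DESeq2), where 6.63% of all genes tested were higher and 7.67% lower. These were Pex16 (log2 -0.86, SE 0.23), Pex11a (-0.68, SE 0.14), Hadh (-0.66, SE 0.12), Acaa2 (-0.61, SE 0.13), Echs1 (-0.56, SE 0.16), Pdk4 (-0.49, SE 0.14), Decr1 (-0.40, SE 0.12), Pex7 (-0.36, SE 0.10) and Pex3 (-0.35, SE 0.11). Pex16 rose by log2 0.89 with CytoD in cells without CK and changed by 0.03 (adjusted p = 0.927) in cells with it, and Pex11a by 0.77 and 0.09. Hadh rose by 0.36 without CK and fell by 0.30 with it. Acaa2 was not called without CK (0.11) and fell by 0.50 with it. The calls of Hadh and Acaa2 and that of Pex11a were kept when any 1 library was left out. Pex11a was not called with the gene length correction (log2 -0.58, adjusted p = 0.0562). For each of the other 6 genes the call was lost without Ctrl replicate 2, Ctrl replicate 3, CytoD replicate 1 or CytoD replicate 2. Each of them also lost it without further libraries. Pex16, for example, was also not called without CytoD replicate 3 or CytoD+CK replicates 1 or 3 (adjusted p = 0.056, 0.0653 and 0.052). Decr1, Pex7 and Pex3 were also not called without the low-count filter (adjusted p = 0.0735, 0.063 and 0.0901). Decr1 and Pex3 were not called without Rn45s (0.0548 and 0.0558), nor was Pex3 with RLE size factors (0.0533), halved counts (0.0513) or the gene length correction (0.0504). Ech1 and Pex13, not among the 9, were called with DESeq2 (0.0267 and 0.033) and with the gene length correction (0.0141 and 0.0235). The count of lower genes was 3 without Ctrl replicate 2, Ctrl replicate 3, CytoD replicate 1 or CytoD replicate 2, 4 without CytoD replicate 3 or CytoD+CK replicate 1, and 5 without CytoD+CK replicate 2. The median over the 38 genes was -0.21, and -0.09 without CK replicate 3, against -0.02 over all genes. Of the adipocyte markers, 8 of 10 were also lower in the interaction.

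**Figure D4:**
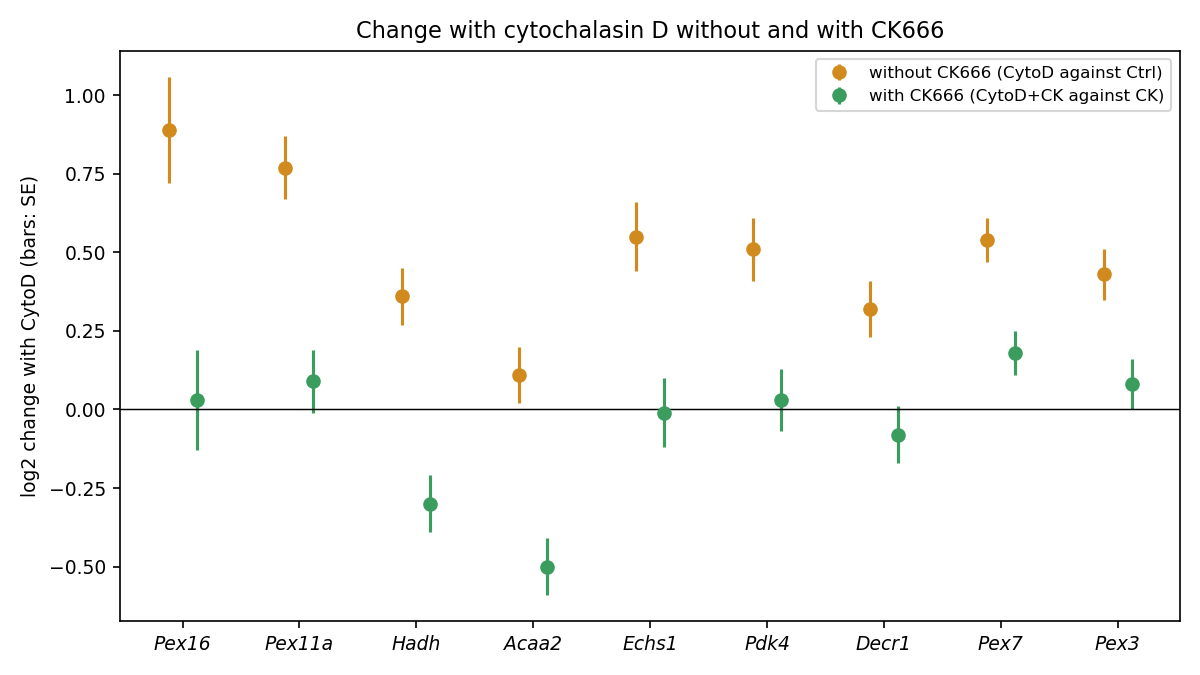
The log2 change with CytoD (y axis) without CK (CytoD against Ctrl) and with CK (CytoD+CK against CK) for the 9 genes (x axis) whose changes differed; bars are standard errors. The values without CK lie at 0.11 to 0.89 and those with CK at -0.50 to 0.18.

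Other genes of the pathways were read from lists not restricted to the 38. The list of 25 other genes of fatty acid activation and mitochondrial oxidation also held genes that are not oxidation enzymes, such as Acacb and Mcat. Of these 25, 18 rose and 1 (Acot9) fell with CK, and 8 rose and 4 (Acot9, Acsl3, Acsl5 and Slc27a1) fell with CytoD. Over all genes tested the shares were 22.5% higher and 18.7% lower with CK and 19.1% and 18.9% with CytoD. The 4 lower genes are near the share over all genes. Acsl1, which activates long chains with coenzyme A, had 59, 51 and 49.4 CPM in Ctrl, 125, 123 and 121 in CytoD, 366, 670 and 587 in CK and 601, 943 and 901 in CytoD+CK, or log2 1.21 (SE 0.20) with CytoD and 3.35 (SE 0.21) with CK. The thioesterases Acot2 and Acot1 rose with CK by log2 1.31 and 1.12, the latter from 0.559 CPM. Of 41 other peroxisome genes tested, 25 rose and 0 fell with CK and 14 rose and 0 fell with CytoD in edgeR's test, and the counts of 0 were 0 at an unadjusted p under 0.05 and with DESeq2. Abcd2, a transporter of very long chains into peroxisomes, had 13, 11.6 and 12.8 CPM in Ctrl, 59.4, 74.8 and 72.9 in CytoD, 88.8, 120 and 104 in CK and 127, 188 and 186 in CytoD+CK, and Ephx2, an epoxide hydrolase, rose with CK by log2 2.07 (SE 0.14), as did Acaa1b (log2 2.07, SE 0.50). A further list of PPAR targets and coregulators also held Pparg, Acaca and the kinases Pdk1, Pdk2 and Pdk3. Of its 15 genes tested, 12 rose and 2 (Fabp3 and Pdk3) fell with CK, and 6 rose and 1 (Pdk3) fell with CytoD. Ppargc1b, a coactivator of mitochondrial genes, rose with CK by log2 2.36 (SE 0.20) and Angptl4, a secreted lipase inhibitor, by 1.55 (SE 0.12), while Ucp3 rose by 1.84 from 0.0793 CPM, near the floor.

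Promoter windows of RefSeq (250 bases before to 50 after a start site) were matched by symbol for 33 of the 38 genes, 37 windows in all. The hexamer AGGTCA, bound by nuclear receptors, was found on either strand in 13.5% of them, against 16.3% of all 32851 windows and 12.4% of those of genes tested. The direct repeat AGGTCANAGGTCA with at most 2 mismatches, the form that PPAR binds together with RXR, was found in 4 windows (10.8%), against 3.86% of all and 2.9% of those of genes tested. They belonged to Cat (AGGTCAGAGAACA, 204 bases before the start, which holds an AGGTCA hexamer and is in capitals above), Echs1 (AGGTCACGGGTCC), Etfa and Slc25a20. GC boxes were found in 75.7% of the windows, against 35.7% of all and 61.4% of those of genes tested. The repeat of Slc25a20 begins 6 bases past the start site. With CytoD Cat and Echs1 were higher while Etfa and Slc25a20 were not called, and with CK all 4 were higher, as were most of the 38 genes. Whether the repeat has a part in these changes was not tested. A match describes these letters in this window and not binding.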

How the data were processed

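Total RNA from 12 libraries was isolated with the miRNeasy mini kit, per the labels' protocols. The count values are the authors' reads per gene, per the file headers, and the submitters' processing notes name CASAVA 1.9, TopHat 12.0.6, HTSeq and the human build hg19. The coordinates of all 38 genes nevertheless overlap RefSeq's mouse GRCm38.p6 genes of the same symbol. The RPKM values in the deposited table were made by the authors with a library total 1.122 to 1.162 times the sum of gene counts, and were used here only for that check. The table's 23358 rows hold 23315 distinct symbols, and all its counts are even.

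Counts were analysed as deposited in edgeR 4.0.16 under R 4.3.3: filterByExpr (minimum count 10, 13534 genes kept), TMM scaling, and a quasi-likelihood fit with a mean for each of 4 groups (common biological coefficient of variation 0.115). In each comparison 2-sided p values had Benjamini-Hochberg adjustment over all genes tested, and genes were called at an adjusted p under 0.05, with no adjustment across comparisons. The SE is the log2 change over the square root of F. The fit was tested on simulated data. Alternatives were RLE size factors, no filter, DESeq2 1.42.0, a replicate block, 2 groups only, halved counts, removal of Rn45s, a gene length correction and leaving out each library. The 38 genes, the lists and the alternatives were chosen with earlier results of these data known. The rule for named genes gave values per library for Ppara, Ppard, Pdk4, Ucp2, Cpt1a, Cpt1b, Cat, Acaa1a and Pex11a and for the 3 called genes of each class with the largest change with CytoD or CK, and for each list of other genes it named the 3 with the largest change with CK. Abcd2, Acsl1, Plin1 and genes named beside a count of 5 or fewer are given with more detail chosen after their values were seen. Brown fat (6 genes), macrophage (7), endothelial (5) and erythroid and lymphoid (8) markers had summed levels of at most 25.5, 13, 0.803 and 0.163 CPM in any library. Of the genes, 9 overlap another row, and how such reads were assigned is not given in the sources used here.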

Additional observations from a re-analysis of the deposited data

Results flagged for a closer look

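For 9 genes the change with CytoD in cells treated with CK differed from that in cells without CK, by the interaction term of the edgeR fit (Benjamini-Hochberg adjusted over 13534 genes). On the log2 scale the difference was -0.86 for Pex16, -0.68 for Pex11a, -0.66 for Hadh, -0.61 for Acaa2, -0.56 for Echs1, -0.49 for Pdk4, -0.40 for Decr1, -0.36 for Pex7 and -0.35 for Pex3. When 1 library was left out the number called ranged from 3 (without Ctrl replicate 2, Ctrl replicate 3, CytoD replicate 1 or CytoD replicate 2) to 10 (without CK replicate 2 or CK replicate 3, the latter the library that stood apart).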

How the results depend on the processing

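No change called for any of the 38 genes had the opposite sign under any alternative run. Counts of genes called moved by more than 1.5 times as follows. CytoD against Ctrl had 4 genes lower with 2 groups only (2 in the fit of all groups), and 8 to 11 higher (14) and 1 to 2 lower without 1 library. CytoD+CK against CytoD had 1 to 2 lower (2) without 1 library. CytoD+CK against CK had 0 higher (1) without the low-count filter, with the replicate block, without Rn45s or with 2 groups only and 2 with the gene length correction, 1 lower (3) with 2 groups only, and 0 to 2 higher and 1 to 5 lower without 1 library. The interaction had 1 higher (0) with the replicate block (Cpt1a, adjusted p = 0.0256), and 3 to 10 lower (9) without 1 library. The cause of these shifts was not tested. Same-numbered libraries had correlations of deviations from -0.079 to 0.256, with 4 of 18 pairs over 0.1. Of the 12 libraries, 8 correlated best with their own number, as a hint from the data. Whether an equal number marks a shared origin cannot be decided from these values, since most are low while most libraries lean to their own number. The replicate block left the other counts within 1.5 times. Of single calls, the block also ended those of Decr1 and Pex3 in the interaction (adjusted p = 0.0577 and 0.0672), Slc25a20 in CK against Ctrl (0.0515) and CK against CytoD (0.06), Acadm in CytoD+CK against CytoD (0.0534), and Hadh and Hadhb in CytoD+CK against CK (0.0531 and 0.0563), and made that of Ppara in CK against Ctrl (0.0472). With CK against Ctrl 26 to 32 genes were higher without 1 library and 31 with RLE size factors. Where leaving out a library left 2 in a group, the spread was pooled over groups. Depth limits Ucp2, Cpt1b and Ppara most, and halved counts left 37 of the 38 genes tested.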
